A study of Mus musculus with 11 samples.

Results

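The genes described here are the chemokine ligands and the chemokine receptors of the mouse, taken by symbol from the gene counts: Cxcl, Ccl, Cx3cl1 and Xcl1 for the ligands, Cxcr and Ccr for the signalling receptors, and Ackr for the atypical receptors. The rule found 60 of the 27179 counted genes, of which 40 were ligands (13 CXC, 25 CC and 2 of the CX3C and XC classes), 16 were signalling receptors and 4 were atypical receptors. The rule itself used symbols and no measured value.

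Chemokines are small secreted proteins that steer migrating cells along concentration gradients, and they are classed by the spacing of their first cysteines. They act through G protein-coupled receptors of the CXCR, CCR, CX3CR and XCR groups. The atypical receptors bind chemokines without the usual G protein signalling and mostly remove or transport them, so that they shape the gradient. In the mammary gland, chemokines from the epithelium and stroma recruit macrophages and other leukocytes around the growing end buds and ducts.

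RNA was sequenced from basal and luminal epithelial cells of the pubertal mammary gland, taken from terminal end buds (TEBs), the club-shaped growing tips, and from the ducts behind them. The mice were 5 weeks old, carried an E-cadherin-GFP knock-in and were labelled as C57BL/6. In all 4 groups TEBs and ducts were dissected by hand, and CD24+ CD29+ cells negative for lineage markers of blood and endothelium were sorted into luminal (GFP high) and basal (GFP low) fractions. Each library pooled at least 2 mice, and there were 3 basal duct, 3 basal TEB, 2 luminal duct (replicates 1 and 3) and 3 luminal TEB libraries. The totals ran from 27989137 to 49221436 counts per library. Levels below are CPM (each library's counts scaled to the same TMM-adjusted total), or RPKM (CPM per kilobase of exon) where genes are compared with each other.

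The labelled cell types carried their markers. The 6 basal markers summed to 4952 to 17582 CPM in the basal libraries and to 11.9 to 217 CPM in the luminal ones, and the 6 luminal markers summed to 11728 to 18240 CPM in the luminal libraries and to 242 to 522 CPM in the basal ones. Several libraries stood apart. Basal TEB replicate 1 had 37.5% and luminal duct replicate 3 had 28.5% of their counts on mitochondrial genes, against 4.34% to 17.8% elsewhere. Basal duct replicate 2 held 203 CPM of the 6 endothelial markers, against 1.02 to 41.3 CPM in the other libraries. It was also the library with the most fibroblast (840 CPM), pericyte (37.3 CPM) and adipocyte (182 CPM, mostly Fabp4 at 179 CPM) marker RNA. Luminal duct replicate 3 held 226 CPM of the 14 leukocyte markers, against 6.90 to 145 CPM in the other libraries, the 145 CPM being in basal duct replicate 2. Luminal duct replicate 3 was also the luminal library with the most basal (217 CPM) and fibroblast (250 CPM) marker RNA. In bulk RNA of this kind, fewer cells of a type and less RNA per cell cannot be told apart.

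Of the 60 genes, 41 passed the filter on low counts, 35 reached a mean of 1 CPM in at least 1 group and 14 reached 10 CPM. No count was recorded in any library for 8 genes, namely the ligands Ccl1, Ccl21c, Ccl26 and Xcl1 and the receptors Cxcr1, Cxcr2, Ccr3 and Ccr8. A count of 0 allows a level of up to 0.0572 to 0.173 CPM, depending on the library (3 counts, counting error only). A further 11 genes had counts but did not pass the filter, among them the ligands Ccl3, Ccl4, Ccl12, Ccl24, Cxcl3 and Cxcl11 and the receptors Ccr1, Ccr4, Ccr6 and Cxcr3.

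On the RPKM scale, 1 ligand made up most of the family's RNA in basal cells. Cxcl14, a CXC ligand of epithelia with no agreed signalling receptor, had a mean of 914 RPKM in basal ducts and 371 RPKM in basal TEBs, which was 68.4% and 73.3% of the summed RPKM of the 60 genes. In basal ducts Cxcl1 (76.2 RPKM), Cx3cl1 (75.2 RPKM) and Ackr3 (68.7 RPKM) came next, and their order was not set beyond their spread, since Cxcl1 alone ran from 32.5 to 111 CPM. In luminal cells Cxcl15 had the highest group mean, with 109 RPKM in ducts and 50.9 RPKM in TEBs, or 36.3% and 24.3% of the family's sum, followed by Cxcl1 at 61.6 and 45.1 RPKM and, in TEBs, Cxcl13 at 33.9 RPKM. In luminal ducts the place of Cxcl1 rested on replicate 1 (113 RPKM). In replicate 3 it had 10.2 RPKM, below Cxcl13 at 32.9 RPKM. The order in luminal TEBs was also not set beyond the spread between libraries. In replicates 1, 2 and 3 Cxcl15 had 92.5, 18.3 and 42.0 RPKM. Cxcl1 was ahead of it in replicate 2 (44.2 RPKM) and Cxcl13 in replicates 2 and 3 (27.1 and 48.2 RPKM).

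**Figure D1:**
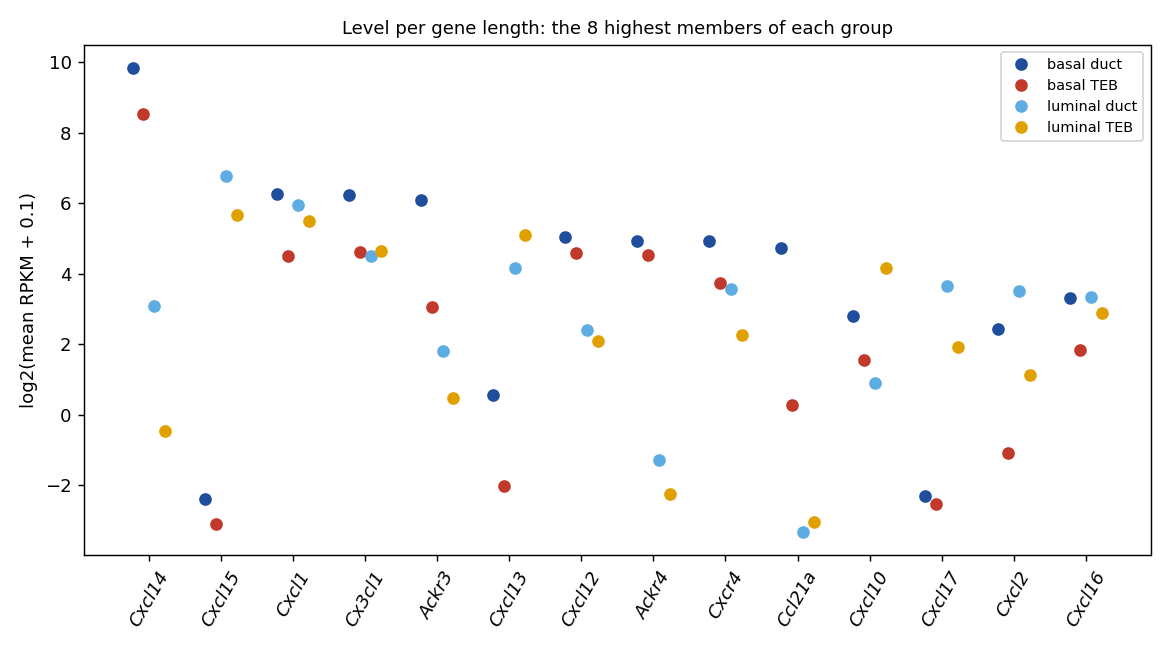
Mean level per gene length of the 14 genes that were among the 8 highest in at least 1 group. The vertical axis is log2(mean RPKM + 0.1), each point is a group mean (n = 3, or 2 for luminal ducts) and the colours are the 4 groups. Cxcl14 stands highest in both basal groups (914 and 371 RPKM) and Cxcl15 has the highest mean in both luminal groups (109 and 50.9 RPKM), in TEBs through replicate 1 (92.5 RPKM).

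Upstream sequence was read for the chemokine genes, because motifs near the start of transcription are part of how chemokine genes are known to be switched on. A RefSeq promoter entry existed for 44 of the 60 genes, and the 250 bases before the annotated start were searched on both strands for the TATA box (TATAAA), a kappaB site (GGNNTTTCC), a STAT site (TTCNNNGAA) and an AP-1 site (TGANTCA). In some genes, among them Cxcl14, Ccl17, Ccr3 and Ccr4, the start of the entry and the whole window lay inside the annotated gene span. The TATA box was in 11 of the 44 chemokine promoters (25.0%) and in 13.0% of all 27025 promoters, and the kappaB letters were in 9 of 44 (20.5%) and in 4.84% of all. The STAT letters were in 3 of 44 (Ccl17, Ccr6 and Cxcl14) against 7.18% of all, and the AP-1 letters in 4 of 44 against 6.87%. In the 12759 promoters of genes tested the shares were 7.26% (TATA), 5.04% (kappaB), 6.13% (STAT) and 4.79% (AP-1). The median number of CpG pairs was 3 in the chemokine promoters and 14 in the promoters of all genes tested. Of the other genes called in the comparisons below, Cxcl12 and Ccl21a held none of the motifs. Ackr4 held TATA and kappaB letters, Cxcl13 TATA letters and Cxcl14 STAT letters. Windows are printed only for a choice of genes with a match, of which Cxcl1 and Cxcl2 were called in no comparison of the main test. The windows of the 2 genes that were lower in basal TEBs, of the leading luminal ligand and of the neighbouring genes Cxcl1 and Cxcl2 are printed 5′ to 3′ (GRCm38.p6, plus strand for all), with the TATA or kappaB letters in capitals.
Ackr3, chr1:90203730-90203979: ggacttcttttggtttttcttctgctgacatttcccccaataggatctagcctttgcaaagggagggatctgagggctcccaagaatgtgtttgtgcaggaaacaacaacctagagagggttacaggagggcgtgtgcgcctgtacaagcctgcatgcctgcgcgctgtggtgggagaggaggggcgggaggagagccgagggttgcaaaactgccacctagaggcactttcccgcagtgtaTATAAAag
Cx3cl1, chr8:94771930-94772179: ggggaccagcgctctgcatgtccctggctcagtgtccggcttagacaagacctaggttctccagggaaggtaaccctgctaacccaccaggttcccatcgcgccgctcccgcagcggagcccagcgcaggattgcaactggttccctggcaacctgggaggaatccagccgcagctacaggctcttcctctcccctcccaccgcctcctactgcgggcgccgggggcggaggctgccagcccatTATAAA
Cxcl15, chr5:90794284-90794533: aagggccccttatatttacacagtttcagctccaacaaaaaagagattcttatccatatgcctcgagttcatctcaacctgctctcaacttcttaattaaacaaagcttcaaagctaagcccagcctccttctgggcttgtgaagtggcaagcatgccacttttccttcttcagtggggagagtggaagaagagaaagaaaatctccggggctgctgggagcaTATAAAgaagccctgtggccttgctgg
Cxcl1, chr5:90890995-90891244: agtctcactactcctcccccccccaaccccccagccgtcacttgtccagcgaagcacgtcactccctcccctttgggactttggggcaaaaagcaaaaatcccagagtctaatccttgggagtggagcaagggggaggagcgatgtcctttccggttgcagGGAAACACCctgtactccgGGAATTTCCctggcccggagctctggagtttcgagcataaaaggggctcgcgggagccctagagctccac
Cxcl2, chr5:90903649-90903898: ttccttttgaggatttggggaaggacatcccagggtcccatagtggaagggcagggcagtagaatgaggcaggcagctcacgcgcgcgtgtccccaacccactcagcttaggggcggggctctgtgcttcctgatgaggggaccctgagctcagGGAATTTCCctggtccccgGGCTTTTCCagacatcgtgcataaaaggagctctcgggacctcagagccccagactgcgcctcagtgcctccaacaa
In Ackr3 and Cx3cl1 the TATA letters began 8 and 6 bases before the annotated start, and in Cxcl15 they began 27 bases before it. Cxcl1 and Cxcl2 each held a pair of kappaB matches, 89 and 70 bases before the start in Cxcl1 and 96 and 77 bases before it in Cxcl2, and the letters GGAATTTCC were shared by both. These matches describe the letters of the windows only.

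The TEB was compared with the duct within each cell type, and basal cells were compared with luminal cells within each structure, by edgeR's quasi-likelihood test over all 17370 genes that passed the filter (FDR below 0.05 after Benjamini-Hochberg adjustment). In basal cells 0 chemokine genes were higher and 2 were lower in TEBs than in ducts, namely Ackr3 and Cx3cl1, against 0.167% and 1.16% of all genes tested. In luminal cells 0 were higher and 1 was lower in TEBs, namely Cxcl14, against 0.639% and 0.771% of all genes. Between basal and luminal ducts 6 of the 41 were higher in basal cells (Cxcl14, Cxcl12, Cx3cl1, Ccl21a, Ackr3 and Ackr4) and 1 was lower (Cxcl15), against 12.6% and 9.71% of all genes. Between basal and luminal TEBs 4 were higher (Cxcl14, Cxcl12, Ackr3 and Ackr4) and 2 were lower (Cxcl13 and Cxcl15), against 13.2% and 11.8% of all genes. The change from duct to TEB differed between basal and luminal cells for 1 gene, Cx3cl1, whose change was more negative in basal cells. No gene of the family differed in the other direction, and the shares of all genes were 0.363% and 0.0806%.

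The counts of 0 higher genes rest on a test with few libraries: at an unadjusted p below 0.05, 9 of the 41 genes passed in basal cells and 6 in luminal cells, in either direction, against 14.5% and 16.6% of all genes tested. In basal cells 36 of the 41 fitted changes were negative, against 9053 of all 17370 genes tested. The median log2 fold change was -2.02 against -0.03 over all genes. That median carries many genes at low counts. Of the 52 genes with a count, 20 had their highest level in basal duct replicate 2. It was the library with most endothelial, fibroblast, pericyte and adipocyte marker RNA. The 14 genes with a mean of at least 10 CPM in any of the 4 groups were all negative too, with a median of -1.69. Of these only Ackr3 and Cx3cl1 were called, and Ccl21a and Ccl27a reached 10 CPM in basal ducts only. Ccl21a did so through replicate 2 (65.4 CPM). Cxcl2, Cxcl10, Cxcl13 and Cxcl15 reached 10 CPM in luminal cells only, and Cxcl15 had means of 0.0928 and 0.0165 RPKM in basal ducts and TEBs. The signs of the 14 thus also include genes at low basal levels and genes chosen through a high duct level. Neither median was read further. In luminal cells 22 of the 41 changes and 7989 of all 17370 were negative, with a median of -0.45 against 0.04 over all genes.

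**Figure D2:**
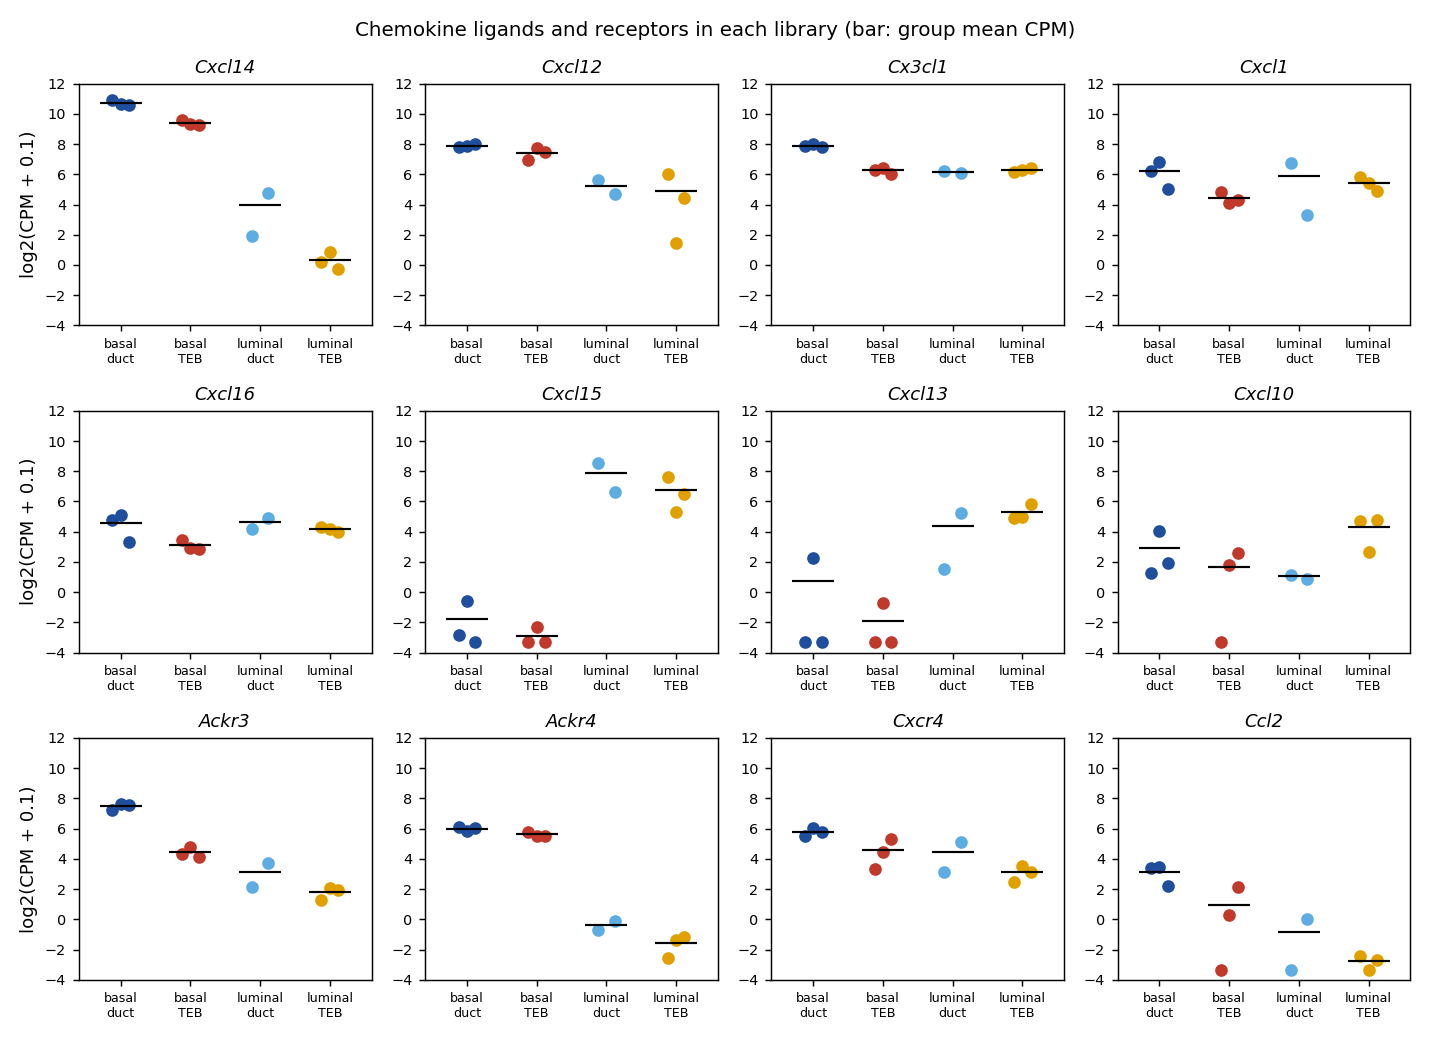
Levels of 12 chemokine genes in each of the 11 libraries. The vertical axis is log2(CPM + 0.1), each point is 1 library and the bar is the group's mean CPM. Cxcl14, Cxcl12 and Ackr4 lie high in both basal groups, Cxcl15 lies high in both luminal groups, and Ackr3 and Cx3cl1 drop between basal ducts and basal TEBs.

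Among the CXC ligands, Cxcl14 (chromosome 13, 56288643 to 56296811, GRCm38.p6) was a basal gene in both structures. It had 1904, 1582 and 1526 CPM in basal ducts and 771, 634 and 627 CPM in basal TEBs. In luminal ducts it had 3.73 and 26.9 CPM, and in luminal TEBs 1.03, 1.70 and 0.732 CPM. Every basal library was thus above every luminal one, by a log2 fold change of 6.78 (SE 0.78, FDR = 6.96e-05) in ducts and 9.19 (SE 0.73, FDR = 2.71e-06) in TEBs. The TEB level in basal cells was lower in all 3 libraries (log2 fold change -1.30, SE 0.51), but did not pass the test with all groups in 1 fit (FDR = 0.278). It did pass in 5 of 22 alternative settings, among them the fit of only the basal groups (FDR = 0.0193) and limma voom (FDR = 0.000582). In the other settings the FDR reached 0.49, and it was 0.327 with the replicate block.

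In luminal cells Cxcl14 was lower in TEBs than in ducts (log2 fold change -3.72, SE 0.61, FDR = 0.0178). The higher of the 2 duct libraries was replicate 3, and without it the log2 fold change was -1.69 (FDR = 0.059). The call was lost in 7 of 22 alternative settings: without luminal duct replicate 3, luminal TEB replicate 1 (FDR = 0.073) or luminal TEB replicate 3 (0.0841), with library size only (0.0606), with limma voom (0.225), with only the groups compared (0.0724) and with the replicate block (0.0525). Replicate 3 had 20.3 CPM of the basal keratin Krt5 and 47.5 CPM of Myh11, against 7.69 and 9.45 CPM in replicate 1. Acta2 (103 against 34.6 CPM) and Oxtr (26.9 against 12.4 CPM) were also higher there. Krt14 differed less (18.8 against 14.3 CPM), and Trp63 went the other way (0.206 against 3.44 CPM). As a percentage of the basal duct mean, Cxcl14 was at 1.61% in replicate 3, and the basal markers there ran from 0.0439% to 3.25% of their basal duct means with a median of 1.18%. The part of carried-over basal RNA in this result was not tested.

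Cxcl12, the ligand of Cxcr4 and Ackr3, was also higher in basal cells. It had 222, 238 and 252 CPM in basal ducts and 123, 217 and 178 CPM in basal TEBs, so that the TEB libraries lay below the duct libraries, 1 of them by little, and the change was not called (log2 fold change -0.46, SE 0.71). The luminal levels were 48.3 and 25.7 CPM in ducts and 64.5, 2.69 and 21.5 CPM in TEBs, all below the basal ones. The basal to luminal difference was 2.68 (SE 0.89, FDR = 0.0497) in ducts and 2.55 (SE 0.75, FDR = 0.0266) in TEBs. The duct call was held in 10 of 22 alternative settings and the TEB call in 17 of 22, always with the same sign. Fibroblast markers, from a cell type that also makes Cxcl12, summed to 226 to 840 CPM in the basal libraries and 6.03 to 250 CPM in the luminal ones, and their part in the Cxcl12 difference was not tested.

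Cxcl15, a CXC ligand known from lung and other secretory epithelia, was the luminal counterpart. It had 366 and 97.0 CPM in luminal ducts and 197, 38.8 and 89.4 CPM in luminal TEBs, while no basal library exceeded 0.552 CPM. Basal cells were lower by a log2 fold change of -10.25 (SE 1.16, FDR = 5.92e-05) in ducts and -11.04 (SE 1.28, FDR = 5.21e-05) in TEBs, and these calls held in all 22 alternative settings. Within luminal cells the libraries of the duct and TEB groups overlapped, with a log2 fold change of -1.10 (SE 0.80) that was not called.

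Cxcl13, the B cell attractant that acts on Cxcr5, had 30.6, 31.5 and 56.1 CPM in luminal TEBs, and 2.73 and 38.3 CPM in luminal ducts. In basal ducts it was at 0, 4.76 and 0 CPM, and in basal TEBs at 0, 0.505 and 0 CPM. The difference between basal and luminal TEBs was called (log2 fold change -7.60, SE 2.13, FDR = 0.0205), and it was lost in 3 of the 21 settings that gave a value, each of which left out 1 TEB library. Cxcl17, a mucosal chemokine, showed 18.8 and 0 CPM in luminal ducts and 2.25 to 3.37 CPM in luminal TEBs, with at most 0.239 CPM in basal cells. The edgeR quasi-likelihood test did not call its basal to luminal differences (FDR = 0.0743 in ducts and 0.117 in TEBs). DESeq2 called both, as did the fit without luminal duct replicate 3, in which Cxcl17 had no count.

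Cxcl1 and Cxcl2, neutrophil attractants that signal through Cxcr2, were present in both cell types and varied widely between libraries. Cxcl1 had 74.9, 111 and 32.5 CPM in basal ducts and 28.5, 17.2 and 19.4 CPM in basal TEBs. The 3 TEB libraries were below the 3 duct libraries, but the change was not called (log2 fold change -1.75, SE 0.67, FDR = 0.272). In luminal ducts Cxcl1 had 108 and 9.75 CPM, and in luminal TEBs 57.2, 42.2 and 29.8 CPM, so that the TEB levels lay between the 2 duct libraries. Cxcl2 had 9.64, 5.84 and 1.82 CPM in basal ducts, 0, 1.22 and 0 CPM in basal TEBs, 11.52 and 12.9 CPM in luminal ducts and 3.14, 2.76 and 0.867 CPM in luminal TEBs. The TEB level of Cxcl2 was under that of every duct library in both cell types, and neither change was called by the edgeR quasi-likelihood test (FDR = 0.288 and 0.432). The basal change was called by DESeq2, by limma voom and without basal TEB replicate 2, which is 3 of 22 alternative settings. Their relatives Cxcl5 (at most 1.75 CPM) and Cxcl3 (at most 0.231 CPM) were close to the floor, and no count was recorded for Cxcr2.

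Cxcl16, a membrane-bound ligand of Cxcr6, had 27.6, 34.5 and 9.77 CPM in basal ducts and 10.97, 7.64 and 7.17 CPM in basal TEBs, which overlapped. Its luminal levels were 18.3 and 30.4 CPM in ducts and 19.8, 18.0 and 15.4 CPM in TEBs. The basal change was not called (log2 fold change -1.48, SE 0.44, FDR = 0.148), but was called without basal duct replicate 3 (-1.86, FDR = 0.0318), by the edgeR likelihood ratio test (FDR = 0.0454) and by DESeq2 (FDR = 0.0278). The interferon-inducible ligands of Cxcr3 formed a further group. Cxcl10 had 25.7, 6.10 and 27.4 CPM in luminal TEBs and 2.14 and 1.77 CPM in luminal ducts, with a log2 fold change of 3.33 (SE 1.51) that was not called (FDR = 0.296). Cxcl9 was at 8.74, 1.24 and 8.09 CPM in luminal TEBs and at 14.1 CPM in basal duct replicate 2. Its means were close between luminal TEBs (2.07 RPKM) and luminal ducts (1.35 RPKM), and the change was not called (log2 fold change 0.62, SE 2.21). Cxcl11, annotated in RefSeq as a transcribed pseudogene, had at most 0.443 CPM. The receptor of these ligands, Cxcr3, had counts in 1 library, at 0.400 CPM.

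Cx3cl1, also called fractalkine, is a membrane-tethered ligand that attracts macrophages and monocytes bearing Cx3cr1 (chromosome 8, 94772180 to 94782427). It had 230, 256 and 223 CPM in basal ducts and 79.3, 83.6 and 65.9 CPM in basal TEBs. In luminal ducts it had 75.9 and 66.7 CPM, and in luminal TEBs 72.2, 78.3 and 86.4 CPM. The basal duct libraries were thus well above all 8 others, which lay within 65.9 and 86.4 CPM. The fall in basal TEBs was 3.10-fold (log2 fold change -1.63, SE 0.16, FDR = 0.00122) and was called in all 22 alternative settings. In luminal cells the log2 fold change was 0.15 (SE 0.17), and the difference between the cell types' changes was -1.78 (SE 0.24, FDR = 0.0126). Between the ducts, basal cells were higher by 1.73 on the log2 scale (SE 0.18, FDR = 3.94e-05). The summed basal markers were also lower in basal TEBs (4952 to 7832 CPM) than in basal ducts (14395 to 17582 CPM). So were the fibroblast markers, and the part of either in the Cx3cl1 fall was not tested. The receptor Cx3cr1, which lies outside the symbols of the rule, had at most 0.628 CPM in any library.

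**Figure D3:**
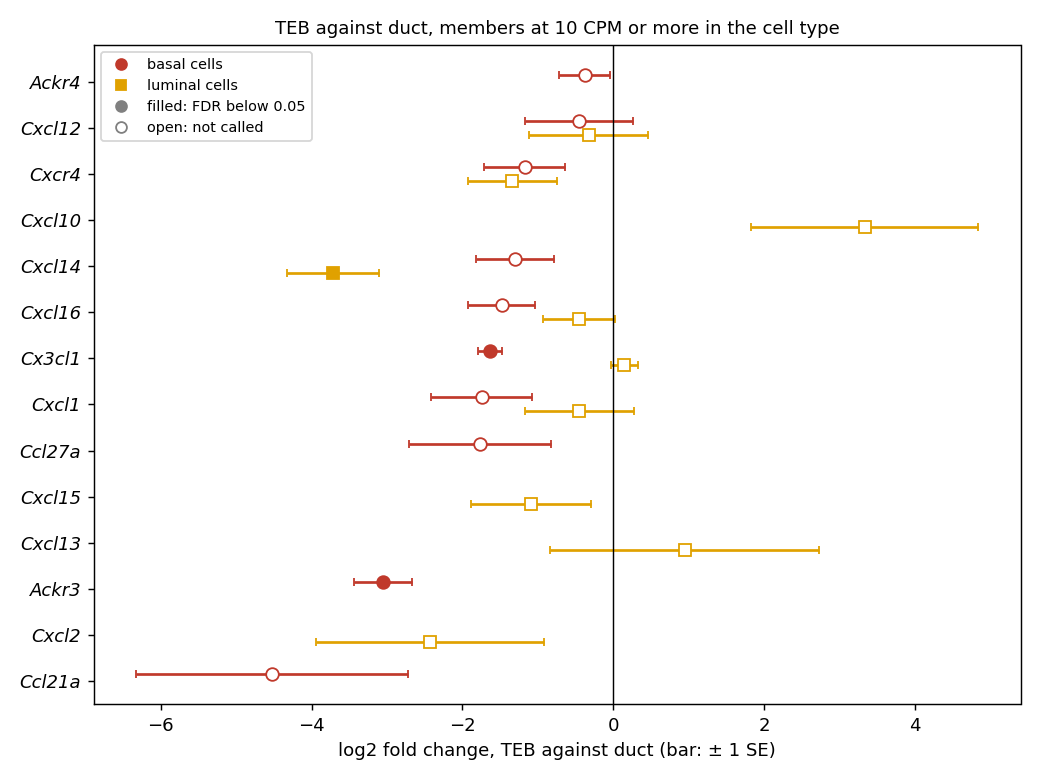
Log2 fold change of TEB against duct for the 14 chemokine genes with a mean of at least 10 CPM, shown for each cell type in which the duct or TEB mean reached 10 CPM. Circles are basal and squares luminal cells, bars are 1 SE, and filled symbols passed the FDR of 0.05. Ackr3 (-3.05) and Cx3cl1 (-1.63) are filled in basal cells and Cxcl14 (-3.72) in luminal cells.

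The 25 CC ligands were mostly low. Ccl27a, a skin-homing ligand of Ccr10, was the only one with counts in all 11 libraries, at 9.42 to 16.4 CPM in basal ducts, 0.115 to 5.43 CPM in basal TEBs, 4.15 and 5.01 CPM in luminal ducts and 2.22 to 3.56 CPM in luminal TEBs. Its basal change was not called (log2 fold change -1.76, SE 0.94, FDR = 0.417). Ccl27a overlaps Il11ra1, its near copy Ccl27b (at most 1.74 CPM) overlaps Il11ra2, and the library kit (TruSeq RNA v2) does not mark strand, so both levels are uncertain. Ccl2, the monocyte attractant that acts on Ccr2, had 10.4, 10.8 and 4.41 CPM in basal ducts, 0, 1.09 and 4.40 CPM in basal TEBs, and at most 0.905 CPM in luminal cells. The edgeR quasi-likelihood test did not call it in any comparison, while 6 of 21 alternative settings called it higher in basal than in luminal TEBs, DESeq2 and the likelihood ratio test among them, and 2 of 22 did so in ducts. Ccl7, its neighbour in function, reached at most 2.97 CPM. Ccl25, a ligand of Ccr9 and Ackr4, had the highest mean RPKM of the CC ligands in luminal ducts (5.43 RPKM), at 6.46 and 7.36 CPM in luminal ducts, 1.51 to 3.50 CPM in luminal TEBs and at most 3.21 CPM in basal cells.

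The Ccl21 genes, ligands of Ccr7 that lymphatic endothelium makes, stood high in 1 library. Ccl21a was at 65.4 CPM in basal duct replicate 2 and at 2.65 and 0.949 CPM in the other basal ducts, and had no count in luminal ducts. Over its group it was at least 476-fold higher in basal than in luminal ducts (floor of 3 counts over the group), and the edgeR test called it (FDR = 0.0235). Of its 2657 counts in basal ducts 2487 were in replicate 2, and without that library, a setting chosen after seeing the data, the bound was 43.4-fold. The call was lost in 5 of 22 alternative settings: without basal duct replicate 2 (FDR = 0.1), without luminal duct replicate 1 (0.101) or 3 (0.0914), with only the groups compared (0.056) and without the 2 libraries highest in mitochondrial share (0.0558). Ccl21b (11.3 CPM) and Ccl21d (16.2 CPM) had their highest level in the same library. The Ccl21 copies are nearly identical, so the split of reads among them is uncertain. That library held 203 CPM of endothelial markers, with Pecam1 at 73.0 CPM and Cdh5 at 32.6 CPM, against 8.98 and 18.5 CPM of the summed markers in the other basal ducts. Its fibroblast, pericyte, adipocyte and leukocyte marker sums were also the highest of the basal ducts. The part of RNA of any of these cell types in the Ccl21 result was not tested.

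Several further CC ligands had their highest level in the same library: Ccl28 (7.60 CPM), Ccl5 (6.39 CPM), Ccl11 (5.13 CPM), Ccl19 (2.68 CPM), Ccl17 (2.42 CPM) and Ccl20 (1.53 CPM). Ccl5, a T cell attractant, was also at 0.717 to 2.62 CPM in luminal TEBs. Ccl6 (2.10 CPM) and Ccl22 (1.27 CPM) had their highest level in luminal duct replicate 3. The remaining CC ligands did not exceed 0.743 CPM in any library.

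**Figure D4:**
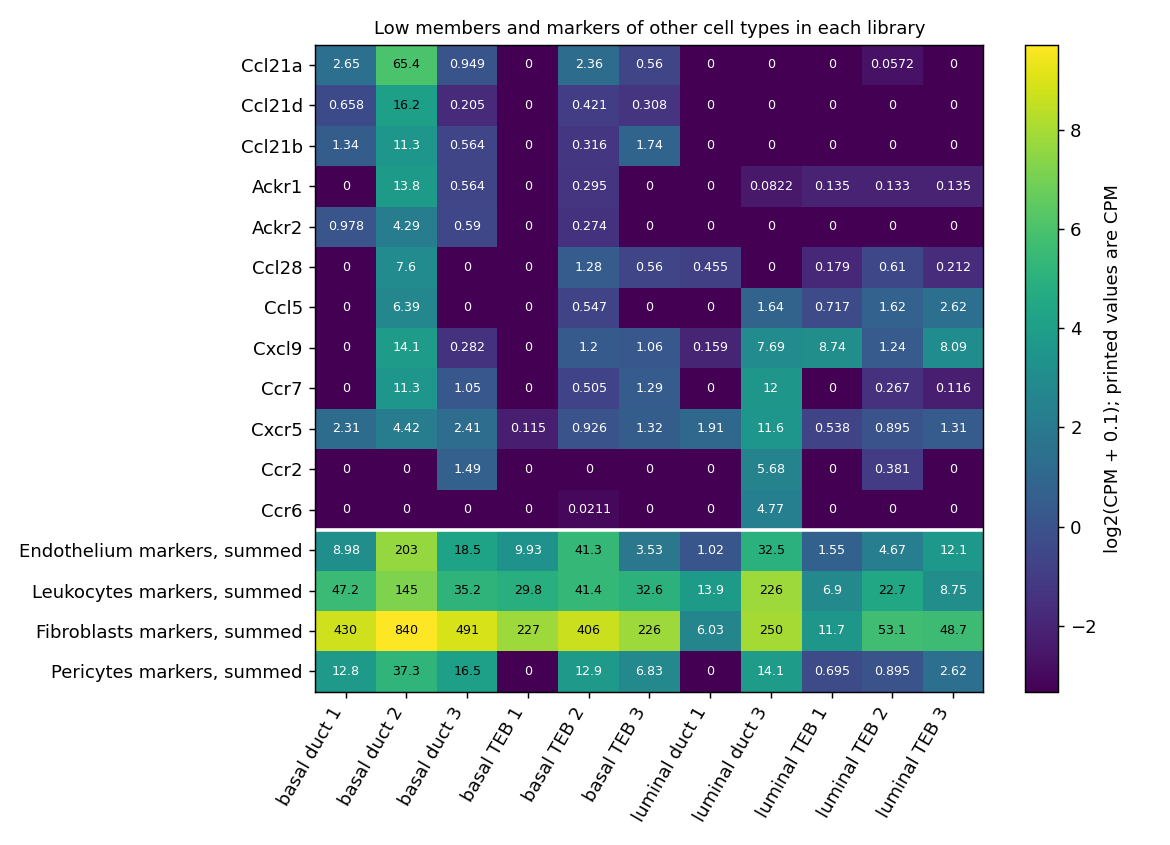
Levels of 12 low chemokine genes and the summed levels of 4 marker lists in each library. Columns are the 11 libraries, the printed numbers are CPM and the colour is log2(CPM + 0.1). Basal duct replicate 2 holds the highest Ccl21a (65.4 CPM), Ackr1 (13.8 CPM) and endothelial marker sum (203 CPM), and luminal duct replicate 3 the highest Ccr7 (12.01 CPM), Cxcr5 (11.6 CPM) and leukocyte marker sum (226 CPM).

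Of the 16 signalling receptors only Cxcr4, the receptor of Cxcl12, reached a mean of 10 CPM. It had 46.3, 64.5 and 53.6 CPM in basal ducts, 9.93, 22.1 and 40.6 CPM in basal TEBs, 8.81 and 34.2 CPM in luminal ducts and 5.47, 11.2 and 8.73 CPM in luminal TEBs. The 3 basal TEB libraries lay below the 3 basal duct libraries, with a log2 fold change of -1.18 (SE 0.54) that was not called (FDR = 0.346). The edgeR quasi-likelihood test with all groups did not call Cxcr4 in any comparison, with basal against luminal TEBs nearest (log2 fold change 1.52, SE 0.54, FDR = 0.0625). That difference was called in 8 of 22 alternative settings, among them the likelihood ratio test, DESeq2 and the replicate block, and the difference between basal and luminal ducts in 4 of 22, among them limma voom and the replicate block. A further 5 receptors had a mean of at least 1 CPM in some group. Ccr7 was at 11.3 CPM in basal duct replicate 2 and 12.01 CPM in luminal duct replicate 3, and at most 1.29 CPM elsewhere. Cxcr5, whose span overlaps Bcl9l, was at 11.6 CPM in luminal duct replicate 3 and 0.115 to 4.42 CPM elsewhere. Ccr2 (5.68 CPM) and Ccr6 (4.77 CPM) were also highest in luminal duct replicate 3. Of the 226 CPM of leukocyte markers there, Cd74 made up 136 CPM, and Laptm5, Ptprc and Cd79a stood at 28.1, 26.5 and 19.9 CPM. The rise was not uniform, since 6 of the 14 markers were at 0. Cd68, at 5.63 CPM, was below its 20.8 to 51.6 CPM in the basal libraries. The part of leukocyte RNA in these 4 receptors was not tested. Ccr10, the receptor of Ccl27a and Ccl28, had at most 3.37 CPM and overlaps Cntnap1.

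Other signalling receptors were low in these sorted cells. Cxcr6 had at most 0.366 CPM beside Cxcl16, Ccr9 at most 0.513 CPM beside Ccl25, and Ccr1 and Ccr4 at most 0.105 CPM. Cxcl12 with Cxcr4 was the only ligand and signalling receptor pair of which both members had means of at least 10 CPM in the same group. These are RNA levels in sorted epithelium and hold nothing on other cells of the gland.

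Of the 2 called falls in basal TEBs, the larger was that of an atypical receptor. Ackr3 (chromosome 1, 90203980 to 90215724), which binds and removes Cxcl12, had 152, 194 and 185 CPM in basal ducts and 20.03, 27.1 and 17.0 CPM in basal TEBs. It had 4.26 and 13.2 CPM in luminal ducts and 2.31, 4.12 and 3.66 CPM in luminal TEBs. The groups did not overlap from basal duct to basal TEB to luminal cells. The fall in basal TEBs was 8.27-fold (log2 fold change -3.05, SE 0.38, FDR = 0.00317), and in 22 alternative settings it lay between -3.31 and -2.90 and was always called. Basal cells were above luminal cells by 4.35 (SE 0.49, FDR = 5.7e-05) in ducts and 2.67 (SE 0.38, FDR = 0.000266) in TEBs. In luminal cells the TEB level was lower at a log2 fold change of -1.37 (SE 0.40), without a call by the edgeR quasi-likelihood test (FDR = 0.118) but called by the likelihood ratio test and by DESeq2. The higher of the 2 luminal duct libraries was replicate 3 (13.2 CPM), the luminal library with the most basal marker RNA (217 CPM). The part of carried-over basal RNA in this luminal change was not tested. The difference between the cell types' changes, -1.68 (SE 0.55), was not called (FDR = 0.203), except without luminal duct replicate 3 and without the 2 libraries highest in mitochondrial share. The summed basal markers were also lower in basal TEBs, at 4952 to 7832 CPM against 14395 to 17582 CPM in basal ducts, and the fibroblast markers were at 226 to 406 against 430 to 840 CPM, and their part in the Ackr3 result was not tested.

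Ackr3 and Cxcr4 share Cxcl12 as a ligand, and their levels were set against each other on the RPKM scale. The ratio of Ackr3 to Cxcr4 was 2.31, 2.12 and 2.43 in the basal duct libraries, 1.42, 0.863 and 0.295 in the basal TEB libraries and 0.258 to 0.340 in the luminal libraries. All 3 basal ducts were above all 3 basal TEBs, while Cxcl12 itself was not called between them.

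Ackr4, which takes up Ccl19, Ccl21 and Ccl25, was close to level between the basal structures and near the floor in luminal cells. It had 69.7, 56.5 and 65.4 CPM in basal ducts and 55.1, 46.4 and 45.5 CPM in basal TEBs (log2 fold change -0.38, SE 0.34, not called). The luminal levels were 0.501 and 0.822 CPM in ducts and 0.0673 to 0.347 CPM in TEBs. Basal cells were higher by 6.62 (SE 0.54, FDR = 6.59e-06) in ducts and 7.67 (SE 0.47, FDR = 4.95e-07) in TEBs, in all 22 alternative settings. Its span lies within that of Acad11, which had means of 51.0, 53.6, 28.7 and 21.2 CPM in basal ducts, basal TEBs, luminal ducts and luminal TEBs. The library kit does not mark strand, so the Ackr4 level is uncertain to that extent. The same limit holds for Cxcl16 (overlapping Zmynd15), Cxcl10 (Art3), Cxcr6 (Fyco1) and Ackr1 (Cadm3), among others. Ackr1, the chemokine transporter of venous endothelium, was at 13.8 CPM in basal duct replicate 2 and at most 0.564 CPM elsewhere, and Ackr2, a scavenger of CC ligands, was at 4.29 CPM in that library and at most 0.978 CPM elsewhere.

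A list of 61 other genes of the pathway held further ligands and receptors, G proteins, arrestins, receptor kinases, sheddases, heparan sulphate carriers and inducers of chemokine transcription, and 56 of them were tested. In basal cells 0 were higher and 2 were lower in TEBs, against 0.167% and 1.16% of all genes: Arrb1, an arrestin that shuts off receptors (log2 fold change -1.41, SE 0.23, FDR = 0.0102), and Sdc4, a heparan sulphate proteoglycan (-1.38, SE 0.24, FDR = 0.0159). Sdc4 had 493, 427 and 270 CPM in basal ducts and 154, 176 and 128 CPM in basal TEBs. In luminal cells 1 was higher in TEBs, Sdc1 (1.81, SE 0.34, FDR = 0.0276), and 1 was lower, the G protein subunit Gnai1 (-3.08, SE 0.66, FDR = 0.0454), against 0.639% and 0.771% of all genes. Gnai1 was a basal gene, at 47.8 to 99.3 CPM in basal libraries and at most 1.60 CPM in luminal ones, the highest being luminal duct replicate 3.

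Between the cell types, 9 pathway genes were higher and 13 lower in basal ducts, and 9 were higher and 20 lower in basal TEBs, of 56 tested. The shares of all genes were 12.6% higher and 9.71% lower in ducts and 13.2% higher and 11.8% lower in TEBs. Higher in basal cells of both structures were Gnai1 (5.80 in ducts and 9.54 in TEBs, log2), the gelatinase Mmp2 (5.18 and 5.80) and Tnfrsf11a, which encodes RANK (3.47 and 2.43). Lower in basal cells of both were Cmtm8 (-5.44 and -4.22), Dock2 (-5.73 and -6.55), Pik3cg (-4.56 and -6.81) and Tnf (-3.49 and -5.79). The leukocyte markers summed to 226 CPM in luminal duct replicate 3 and to 13.9 CPM in replicate 1. The part of leukocyte RNA in these differences was not tested. Adam10, a protease that can shed Cx3cl1 and Cxcl16, was also lower in basal cells (-1.75 and -2.12). For the difference between the cell types' changes, the edgeR test called 0 pathway genes, 14 of 56 had an unadjusted p below 0.05 against 14.7% of all genes, the edgeR likelihood ratio test called 5, DESeq2 called 7 and limma voom called 1.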

How the data were processed

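Per the labels and the study's methods, the authors aligned 80 bp read pairs of poly(A) RNA to mm10 with Rsubread and counted them per RefSeq gene with featureCounts. The deposited values are raw counts, used as deposited. Versions and the treatment of overlapping genes are not given in the sources used here. Gene IDs were matched to symbols and GRCm38.p6 coordinates in RefSeq, for 25275 of 27179 IDs. Genes were filtered with filterByExpr, scaled by TMM and tested with edgeR 4.0.16 (R 4.3.3) by the quasi-likelihood test, with all 4 groups and 11 libraries in 1 fit, and adjusted over 17370 genes by Benjamini-Hochberg. CPM used the counts of the genes tested, 27981825 to 49213818 per library, scaled by TMM, and RPKM divided CPM by exonic kilobases. The steps were tested on simulated data. Alternatives used DESeq2 1.42.0, limma 3.58.1, other filters and normalizations, a replicate block and libraries left out. The chemokine genes and the pathway list were chosen with earlier results of these data known. Named genes are those called or with a mean of at least 1 CPM in a group, and the partners of those. Whether the fractions of 1 replicate number came from the same pool of mice is not given in the sources used here; p-values measure the spread between these libraries. The values of 1 untested gene are not reported here.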

Additional observations from a re-analysis of the deposited data

Results flagged for a closer look

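Cx3cl1 was flagged because its change from duct to TEB differed between basal and luminal cells, by -1.78 on the log2 scale (SE 0.24, edgeR quasi-likelihood test, FDR = 0.0126). It was lower in 3 of 3 basal TEB libraries than in each of the 3 basal ducts, and in luminal cells the duct and TEB libraries overlapped at 66.7 to 86.4 CPM. The difference was called in 18 of 21 alternative settings and was lost with library size scaling only, without basal duct replicate 1 and without luminal TEB replicate 3, with FDR values of up to 0.0696.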

How the results depend on the processing

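The number of chemokine genes called in basal TEBs against ducts was 2, and 4 with DESeq2 or limma voom; leaving out 1 library gave 2 to 3. In luminal TEBs against ducts it was 1, and 3 with the likelihood ratio test or DESeq2 but 0 with library size only, limma voom or only the groups compared. Leaving out 1 library gave 0 to 2 there, with 0 without luminal duct replicate 3, luminal TEB replicate 1 or luminal TEB replicate 3. In basal against luminal ducts it was 7, and 13 with the likelihood ratio test or DESeq2 and 12 with limma voom, and leaving out 1 library gave 6 to 8. In basal against luminal TEBs it was 6, and 13 with the likelihood ratio test, 10 with DESeq2 and 10 without the 2 libraries highest in mitochondrial share; leaving out 1 library gave 4 to 10, the 10 without luminal duct replicate 3. For the difference between the cell types' changes it was 1, and 0 with library size only and 2 with DESeq2 or without the 2 libraries highest in mitochondrial share, with 0 to 3 when 1 library was left out (0 without basal duct replicate 1 or luminal TEB replicate 3, 2 without luminal duct replicate 3 and 3 without luminal duct replicate 1). The causes were not tested.

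With the replicate number as a block, the 5 counts of chemokine genes were 2, 0, 9, 8 and 1 in the same order, and luminal Cxcl14 was no longer called (log2 fold change -3.65, FDR = 0.0525). The deviations of same-numbered libraries correlated at -0.0677 to 0.163 over 15 pairs, with 4 above 0.1, so the numbers were not used as pairs in the values reported. Whether same-numbered libraries came from the same mice was not settled by this.

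Pathway genes called in any comparison numbered 32, and 28 to 39 over the alternatives. By comparison they were 2 (0 to 13 over the alternatives) for basal and 2 (0 to 9) for luminal TEBs against ducts, 22 (13 to 28) between ducts, 29 (26 to 32) between TEBs and 0 (0 to 7) for the difference of changes. Of 34 values of single genes, 4 of 745 alternatives changed sign, all in luminal TEBs against ducts and none of them called. These were Cxcl1 (-1.33 to 2.15 over the alternatives), Cxcl12 (-1.63 to 0.21) and Cxcl15 (-1.87 to 0.16). Luminal ducts had 2 libraries, which limits these comparisons, and levels under about 0.173 CPM lie within the counting floor of basal TEB replicate 1, the library with the smallest scaled size.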
